A study of Mus musculus with 41 samples.

Results

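The genes described here are Apobec1, Gdf3, Dppa3, Nanog and Slc2a3, 5 neighbours on mouse chromosome 6 taken by name and position, out of 53843 annotated genes. Their peaks were found in the 24 deposited peak lists, each list holding the regions enriched for 1 histone mark in 1 cell type. A gene was called marked at its promoter when a peak overlapped the 2 kb on either side of any annotated transcription start, and marked in its window when a peak overlapped the gene body or the 20 kb on either side. The neighbourhood is the span from the first window to the last, chr6:122557792-122821640 on GRCm38 (263.849 kb), and 246 of the 545474 peaks in all lists lay there. It includes the stretch from the end of the Dppa3 window (122650272) to the start of the Nanog window (122687489), which is in no window.

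Nanog encodes a homeodomain factor that holds embryonic stem cells in self-renewal. Gdf3 encodes a Nodal-related ligand of the TGF-beta family, and Dppa3 encodes Stella, a maternal and germ cell protein that shields DNA methylation in the early embryo and is expressed by a variable share of stem cells in serum. Slc2a3 encodes the glucose transporter GLUT3, and Apobec1 encodes the cytidine deaminase that edits apolipoprotein B mRNA. H3K27ac and H3K4me3 mark active regulatory elements and promoters, H3K27me3 is laid down by Polycomb at silenced developmental genes, and H3K18la is the lactyl form of a histone lysine that can also be acetylated. The question was whether H3K18la, like the acetyl and methyl marks, follows the identity of the tissue in which it is measured.

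The marks were profiled by CUT&Tag, in which an antibody directs the Tn5 transposase to cut and tag chromatin, in 8 cell types. Mouse embryonic stem cells of the E14 line were kept either in serum-lif (called mESC-ser) or in 2i-lif (called mESC-2i), and both cultures were processed as whole cells. The others were processed as nuclei. They were primary C57BL/6 cells, namely myoblasts (MB), myotubes (MT) and macrophages grown from bone marrow (BMDM), whose medium the labels give as DMEM and the methods, for the myoblasts, as DMEM mixed with Ham's nutrient medium with horse and bovine serum and basic FGF, snap-frozen C57BL/6 gastrocnemius muscle (GAS), macrophages sorted by CD45, CD11b, F4/80 and CD64 from calf muscle 2 days after hindlimb ischemia (PIM), and nuclei of white epididymal fat (ADIPO) that carry an adipocyte Cre-driven tag and were pulled down on streptavidin beads from female AdipoCre-NuTRAP mice aged 10 weeks. The other mice were female and aged 8 to 12 weeks, and the labels give every sample the treatment control. H3K18la was mapped in all 8 cell types, H3K27me3 in 7 (not ADIPO), H3K27ac in mESC-ser, GAS, BMDM, PIM and ADIPO, and H3K4me3 in mESC-ser, mESC-2i, GAS and PIM. Whole cells and nuclei cannot be told apart here from stem cells and other cell types, and serum and 2i are 2 cultures of the same line.

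The authors combined the replicates of a group (2 samples in 17 groups and 1 in 7) before calling peaks, so a list gives no replicate error, and the lists themselves hold no read depth. Lists held 11002 to 36813 peaks that covered 22.6 to 197 Mb. Peaks are therefore compared across lists by their width and by the rank of their total signal in their own list, rank 1 being the highest. The labelled identities matched H3K18la at marker promoters: 5 of 5 stem cell markers were called in both stem cell lists and 0 of 5 in any other list, 5 of 5 macrophage markers in BMDM and in PIM, 5 of 5 adipocyte markers in ADIPO, and 6 of 6 muscle markers in MT, 5 in GAS and 3 in MB. Macrophage markers were also called in MT (3 of 5), GAS (2 of 5) and ADIPO (2 of 5), adipocyte markers in PIM (3 of 5), GAS and BMDM (2 of 5 each) and MB (1 of 5), and muscle markers in ADIPO (2 of 6). Of the 5 macrophage markers 1 was called in both stem cell lists. Endothelial markers were called in GAS (3 of 3), BMDM and PIM (2 of 3 each) and, at 1 of 3 each, in MB, MT and both stem cell lists. Fibroblast markers were called in GAS (3 of 3), ADIPO (2 of 3) and, at 1 of 3 each, in MT and both stem cell lists. Neutrophil markers were called in PIM and ADIPO (2 of 3 each) and BMDM (1 of 3), and lymphocyte markers in MT and mESC-ser (1 of 3 each).

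The promoter sequences of 2 members were at hand, from RefSeq on GRCm38.p6, each running from 250 bases before to 50 bases after a start. They are shown because the maximum of the serum H3K18la peak at Nanog and that of the PIM H3K4me3 peak at Apobec1 lay at these starts. Capitals mark the composite SOX-OCT element in Nanog (the SOX core CATTGT and the octamer core ATGCAAA, in this order and 1 base apart) and the octamer core alone in Apobec1, all searched on both strands. The first is chr6:122707239-122707538 on the plus strand and the second chr6:122602395-122602694 on the minus strand.
Nanog promoter: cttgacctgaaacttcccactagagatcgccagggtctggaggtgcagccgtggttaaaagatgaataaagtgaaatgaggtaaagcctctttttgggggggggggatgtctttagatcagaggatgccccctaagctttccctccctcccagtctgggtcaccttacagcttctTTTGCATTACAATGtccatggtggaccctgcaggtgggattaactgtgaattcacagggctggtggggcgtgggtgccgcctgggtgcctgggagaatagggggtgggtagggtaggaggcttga
Apobec1 promoter: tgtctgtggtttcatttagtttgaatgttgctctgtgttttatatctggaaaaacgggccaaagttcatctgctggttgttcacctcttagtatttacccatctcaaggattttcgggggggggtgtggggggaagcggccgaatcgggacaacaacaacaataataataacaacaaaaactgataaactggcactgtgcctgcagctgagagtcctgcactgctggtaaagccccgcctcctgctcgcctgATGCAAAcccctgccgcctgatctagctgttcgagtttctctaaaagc

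The Nanog composite ran from 75 to 62 bases upstream of the start, and these letters were present in 2 of 32851 promoter entries (0.00609%), both of them entries of Nanog. The octamer core alone was in 4.63% of the entries and the SOX core in 12.6%, and both overlap the composite. The Nanog promoter was poor in CpG, with an observed to expected ratio of 0.303 in the 500 bases on either side of the start, at percentile 32.9 of 21755 protein-coding genes. Apobec1 (0.447), Gdf3 (0.366), Dppa3 (0.443) and the Slc2a3 start nearest the coding part (0.472) were also below the median of 0.558, and the upstream Slc2a3 start was above it (0.790, percentile 78.2).

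H3K18la was called at all 5 promoters in serum and in 2i stem cells. These 10 calls of 10 compare with 22.4% of all annotated genes and 35.6% of protein-coding genes called per stem cell list. With the H3K18la lists reduced to equal covered bases 5 of the 10 remained, 4 in serum (not Dppa3) and 1 in 2i (Nanog). In the 6 other cell types 10 of 30 promoters were called, against 18.9% of all genes and 30.5% of protein-coding genes, so the members stood near the background there. The 10 calls were not evenly spread: Apobec1 had 5 of 6 (absent from MB), Dppa3 had 3 of 6 (BMDM, PIM and ADIPO), Slc2a3 had 2 of 6 (PIM and ADIPO), and Gdf3 and Nanog had 0 of 6. Nanog and Gdf3 were thus the members called in both stem cell lists and in no other, a pattern of 3.19% of all genes and 3.5% of protein-coding genes. It held for both with promoters of 1 kb and with 5000 peaks per list. With equal covered bases it held for Nanog and was lost for Gdf3, which was then called in serum alone. It was lost for both with promoters of 5 kb, where Gdf3 was also called in GAS, BMDM and PIM and Nanog in MT and ADIPO. The pattern of H3K18la in both stem cell lists, whatever the other lists showed, was found at 17.5% of all genes and 28.6% of protein-coding genes.

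**Figure D1:**
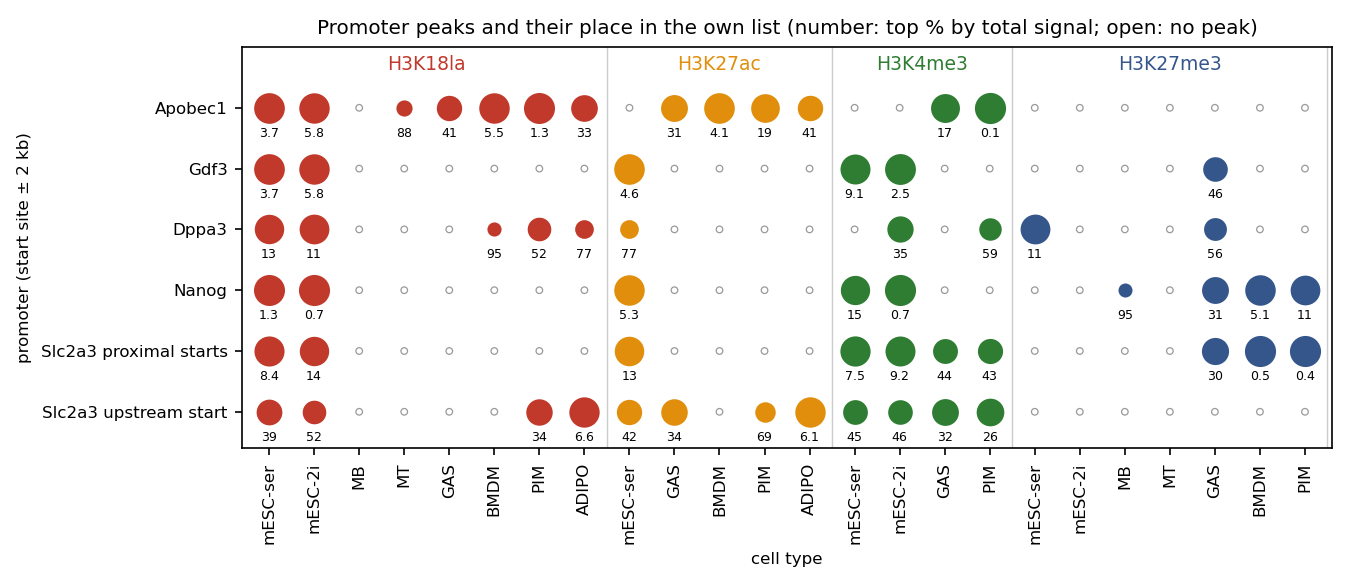
Peak calls at the promoters (within 2 kb of a start, Slc2a3 split into its proximal and upstream starts) in the 24 lists, by mark and cell type, with filled circles for calls, open circles for none, and the number giving the place of the peak in its list as the top percent by total signal. H3K18la was called at all 5 promoters in both stem cell lists (10 calls, of which 5 remained with lists of equal covered bases), and Nanog and Gdf3 had no H3K18la call in the 6 other cell types within 2 kb.

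The active marks matched H3K18la at Nanog and Gdf3, which had them in stem cells and in no other list. At Apobec1 in stem cells H3K18la was called without them, and at Slc2a3 in GAS they were called without H3K18la. At Dppa3 H3K18la was called without H3K4me3 in serum stem cells, and without H3K27ac in BMDM, PIM and ADIPO. H3K27ac was called at 4 of 5 promoters in mESC-ser (21.8% of all genes, 40.2% of protein-coding genes), the exception being Apobec1. In the other cell types H3K27ac was called at 7 of 20 (25% and 44%), at Apobec1 in all 4 lists and at Slc2a3 in GAS, PIM and ADIPO. H3K4me3 was called at 7 of 10 in stem cells (29.4% and 55.3%), at Nanog, Gdf3 and Slc2a3 in both media and at Dppa3 in 2i alone. In GAS and PIM it was called at 5 of 10 (34.1% and 61.8%), at Apobec1 and Slc2a3 in both and at Dppa3 in PIM.

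H3K27me3 was called at 1 of 10 stem cell promoters, Dppa3 in serum (17% of all genes and 24.8% of protein-coding genes). In the other cell types it was called at 9 of 25 (14.2% and 20.5%). Nanog had 4 of these calls (MB, GAS, BMDM and PIM) and Slc2a3 had 3 (GAS, BMDM and PIM), while Gdf3 and Dppa3 had 1 each, in GAS, and Apobec1 had none in any of the 7 lists. Nanog was the member that joined H3K18la in both stem cell lists and no other with H3K27me3 in no stem cell list and at least 3 others, as did 0.425% of all genes and 0.51% of protein-coding genes. With 5000 peaks per list Nanog kept H3K27me3 in BMDM and PIM alone, and with promoters of 5 kb it gained H3K18la calls as given above, so that neither setting gave this pattern.

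Nanog (ENSMUSG00000012396.12, chr6:122707489-122714633, plus strand) lay in one of the broadest H3K18la domains of the stem cells. In mESC-ser the peak over its promoter was 18.985 kb wide and ranked 245 of 19057, and its maximum lay 11 bases upstream of the nearest annotated start. In mESC-2i the peak was 34.1 kb wide and ranked 142 of 19908, with its maximum 2070 bases upstream of the nearest start. Serum H3K27ac covered 5.27 kb there (rank 824 of 15664, maximum 35 bases into the gene). The H3K4me3 peak was 5.86 kb in serum (rank 1605 of 11002) and 8.11 kb in 2i (rank 126 of 19362), with maxima 12 and 11 bases upstream. The maxima of H3K18la, H3K27ac and H3K4me3 in serum and of H3K4me3 in 2i therefore fell within 35 bases of a start, and the 200 bases around the serum H3K18la maximum held the SOX-OCT composite printed above.

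Where Nanog carried H3K27me3, the peaks were of very different size. The peak was 1.46 kb in MB (rank 13255 of 13892) and 3.15 kb in GAS (rank 11457 of 36400). In the macrophages it was a domain, 25.0 kb in BMDM (rank 599 of 11768) and 11.2 kb in PIM (rank 1758 of 15798). In the 4 lists the maxima lay 572 to 932 bases downstream of a start, inside the gene rather than at it. ADIPO was the cell type outside the stem cells with the highest-ranked H3K18la near Nanog, a 3.69-kb peak from 6.61 to 2.92 kb upstream of the gene (rank 3294 of 28752) that lay outside the promoter as defined here. ADIPO H3K27ac was called in the same stretch (2.46 kb, rank 7715 of 23089), as was serum stem cell H3K27ac (3.603 kb, rank 1487 of 15664) and a weak H3K18la peak in MT (2.98 kb, rank 26155 of 33991).

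Gdf3 (ENSMUSG00000030117.5, chr6:122605403-122610087, minus strand) and Apobec1 (ENSMUSG00000040613.14, chr6:122577792-122602444, minus strand) shared their main stem cell peak. In mESC-ser a single H3K18la peak of 9.40 kb (rank 714 of 19057) met both promoters, and in mESC-2i a peak of 8.82 kb (rank 1161 of 19908) did the same. Its maximum was 69 bases from a Gdf3 start in serum and 72 bases in 2i, and in serum 7574 bases from the nearest Apobec1 start. The peak covered 6 of the 9 Apobec1 starts in serum and reached 2415 bases into the Apobec1 promoter window, while in 2i it covered 0 of the 9 Apobec1 starts and ended 908 bases from the nearest. The stem cell call at Apobec1 therefore came in serum from a peak that had its maximum at Gdf3 and reached over both genes, and in 2i from that peak and a separate one of 4.15 kb that ranked 14193. The other active marks were on the Gdf3 side alone, with H3K27ac in serum (3.39 kb, rank 722 of 15664) and H3K4me3 in serum (4.70 kb, rank 1002 of 11002) and 2i (5.08 kb, rank 476 of 19362) called at Gdf3 and not at Apobec1.

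At Apobec1 itself the macrophages had broad peaks with their maxima at the start. PIM H3K4me3 formed a 12.3-kb peak that ranked 33 of 25448, and its maximum lay 9 bases into the gene, next to the octamer core printed above. PIM H3K18la covered 9.72 kb there (rank 411 of 32066, maximum 15 bases into the gene). BMDM H3K18la gave peaks of 3.01 kb (rank 1083 of 19571, maximum 9 bases into the gene) and 4.20 kb (rank 1339), and BMDM H3K27ac covered 8.62 kb (rank 530 of 12884). PIM H3K27ac met the promoter in 3 separate peaks, of which the highest-ranked was 1.11 kb wide (rank 4666 of 24643). In MT, GAS and ADIPO the Apobec1 H3K18la peaks were narrower than in the macrophages and ranked lower by total signal, though by maximum signal ADIPO (top 15.4% of its list) stood above BMDM (top 22.2%). H3K18la covered 1.69 kb in MT (rank 29856 of 33991), 2.90 kb in GAS (rank 15226 of 36813) and 1.44 kb in ADIPO (rank 9418 of 28752). H3K4me3 in GAS covered 3.43 kb and ranked 4975 of 28915, and H3K27ac covered 5.61 kb in GAS (rank 11105 of 35286) and 1.73 kb in ADIPO (rank 9439 of 23089), both wider than the PIM H3K27ac peak and lower in rank within their lists. Macrophage markers were called in the MT, GAS and ADIPO H3K18la lists as given above, and their part in these calls was not tested.

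Dppa3 (ENSMUSG00000046323.8, chr6:122626410-122630272, plus strand) differed between the 2 stem cell media. H3K18la was called in both, as a peak of 5.59 kb in serum (rank 2553 of 19057) and of 9.51 kb in 2i (rank 2180 of 19908). H3K4me3 was called in 2i (3.25 kb, rank 6845 of 19362, maximum 1191 bases into the gene) and not in serum. H3K27me3 was called in serum, as peaks of 5.02 kb (rank 2578 of 24436) and 1.67 kb (rank 9297), and not in 2i. Dppa3 was thus the member at which serum stem cells had H3K18la and H3K27me3 at one promoter. The same chromosomes and different cells of the culture cannot be told apart in peak lists.

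The stem cell H3K18la maxima at Dppa3 were not at the start but upstream of it. The H3K18la maximum was 1752 bases upstream in serum and 1747 bases in 2i, and the serum H3K27me3 maximum was 1741 bases upstream, so that 3 lists had their maxima within 11 bases of each other. A serum H3K27ac peak of 0.879 kb (rank 12107 of 15664) had its maximum 56 bases from that of serum H3K18la. The H3K18la peaks of the other cell types had their maxima inside the gene: 1082 bases from the nearest start in BMDM (0.934 kb, rank 18597 of 19571), 1312 bases in PIM (2.03 kb, rank 16647 of 32066) and 1000 bases in ADIPO (1.44 kb, rank 22247 of 28752). All 3 ranked in the lower part of their lists. PIM H3K4me3 was called at the same side of the start (2.12 kb, rank 14892 of 25448, maximum 1015 bases into the gene). GAS H3K27me3 was called on both sides. Its higher-ranked peak (2.98 kb, rank 20490 of 36400) had its maximum 2040 bases upstream, and the other (1.83 kb, rank 29917) had it inside the gene.

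**Figure D2:**
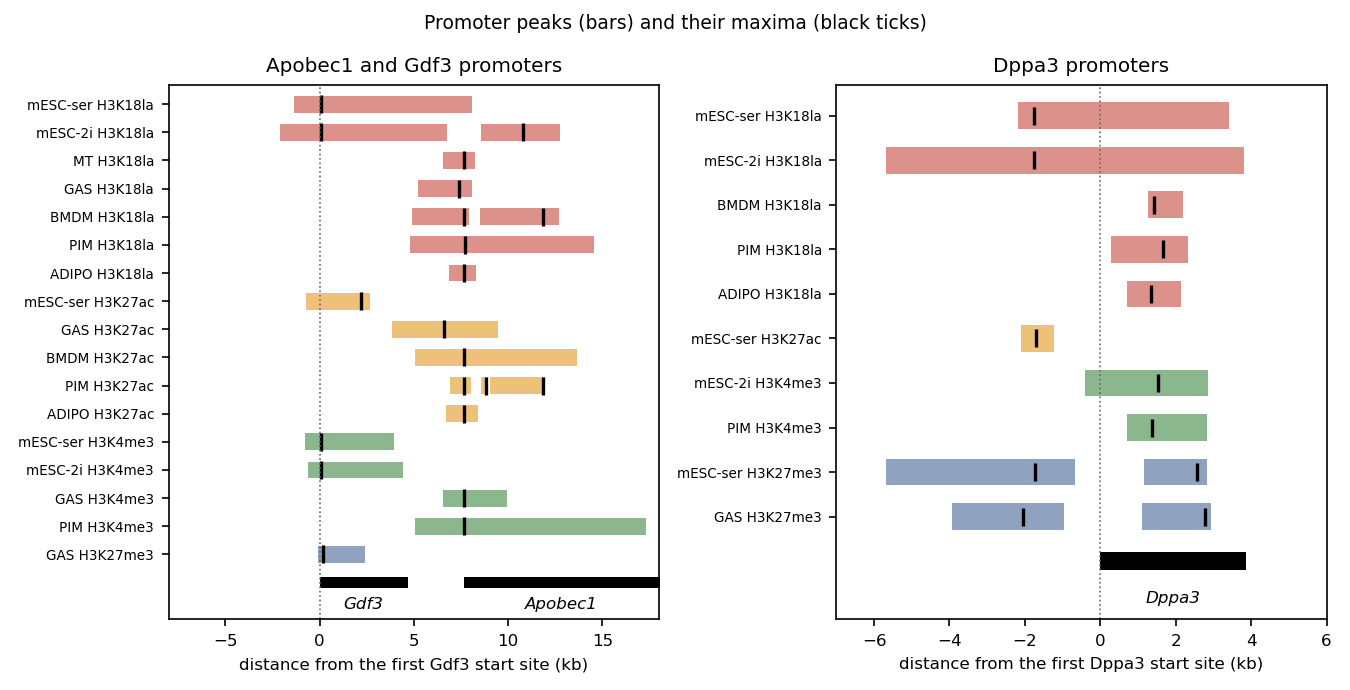
Promoter peaks as bars and their maxima as black ticks, coloured by mark, against the distance in kb from the first Gdf3 start (left, with Apobec1) and the first Dppa3 start (right), with the genes in black. The stem cell H3K18la maxima lay at Gdf3, 69 and 72 bases from a start, while the macrophage peaks lay at Apobec1, and at Dppa3 the stem cell H3K18la and serum H3K27me3 maxima met 1741 to 1752 bases upstream.

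The 200 bases around the shared upstream maximum are given below from GRCm38, chr6:122624570-122624769 on the plus strand, because they are the point on which the H3K18la and H3K27me3 maxima met. Capitals mark the matches to the octamer core read on the opposite strand (TTTGCAT).
Dppa3 upstream maximum: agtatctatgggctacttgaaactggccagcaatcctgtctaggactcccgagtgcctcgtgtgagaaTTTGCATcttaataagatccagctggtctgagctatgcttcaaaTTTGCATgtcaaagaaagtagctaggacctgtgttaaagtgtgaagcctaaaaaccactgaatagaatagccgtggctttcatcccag

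No base of this stretch was repeat-masked, and it held 2 octamer cores. Among all peaks, the 200 bases around the maximum held 1 or more octamer cores in 4.31% and 2 or more in 0.199% of serum H3K18la peaks, 5.09% and 0.221% of 2i H3K18la peaks, and 2.80% and 0.0737% of serum H3K27me3 peaks. A match of letters is a description and says nothing of binding.

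Slc2a3 (ENSMUSG00000003153.10, minus strand, chr6:122727809-122801640) has starts in 3 places, a proximal group nearest the coding part (chr6:122733176-122742920), an intermediate one at 122779957 and an upstream one at 122801640, and the cell types differed in which were marked. At the proximal starts stem cell H3K18la covered 6.58 kb in serum (rank 1606 of 19057) and 9.25 kb in 2i (rank 2728 of 19908), and no other cell type had H3K18la there. At the intermediate start stem cell H3K18la covered 3.00 kb in serum (rank 9641) and 10.8 kb in 2i (rank 5009), and ADIPO had a peak of 1.27 kb (rank 15900 of 28752). At the upstream start it covered 2.93 kb in serum (rank 7400) and 3.93 kb in 2i (rank 10354), and it was also called in PIM (2.14 kb, rank 11011 of 32066) and in ADIPO (4.74 kb, rank 1910 of 28752). ADIPO ranked the upstream start higher than either stem cell list did, and its H3K27ac peak there (3.02 kb, rank 1399 of 23089) also ranked above that of mESC-ser (2.66 kb, rank 6512 of 15664), GAS (rank 11869 of 35286) and PIM (rank 16968 of 24643).

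H3K4me3 was on both the proximal and the upstream starts in each of its 4 lists. In stem cells the proximal peak ranked higher, 822 against 4961 in serum and 1784 against 8895 in 2i. In GAS and PIM the upstream peak did, at 9182 against 12802 in GAS and 6631 against 10849 in PIM. H3K27me3 lay on the proximal starts and not on the upstream one. It covered 3.94 kb in GAS (rank 10763 of 36400), whereas in BMDM a single peak of 62.2 kb (rank 53 of 11768) and in PIM one of 62.9 kb (rank 56 of 15798) ran over the proximal starts and the gene. The maxima of these 2 domains were 1 base apart, at 122758937 and 122758936. PIM and GAS thus had H3K4me3 and H3K27me3 at the proximal starts in the same cell type, and the same and different cells cannot be told apart.

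The Slc2a3 body also held a strong stem cell region away from the promoters, which ranked above the Nanog peak in serum and below it in 2i. The 17.4-kb region from 48.6 to 66.0 kb downstream of the Nanog start carried H3K18la in serum (rank 137 of 19057) and in 2i (rank 332 of 19908). MB had an 8.05-kb peak there (rank 1320 of 13550) and MT one of 5.07 kb (rank 5441 of 33991). It was the highest-ranked of the 3 MB H3K18la peaks in the neighbourhood.

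**Figure D3:**
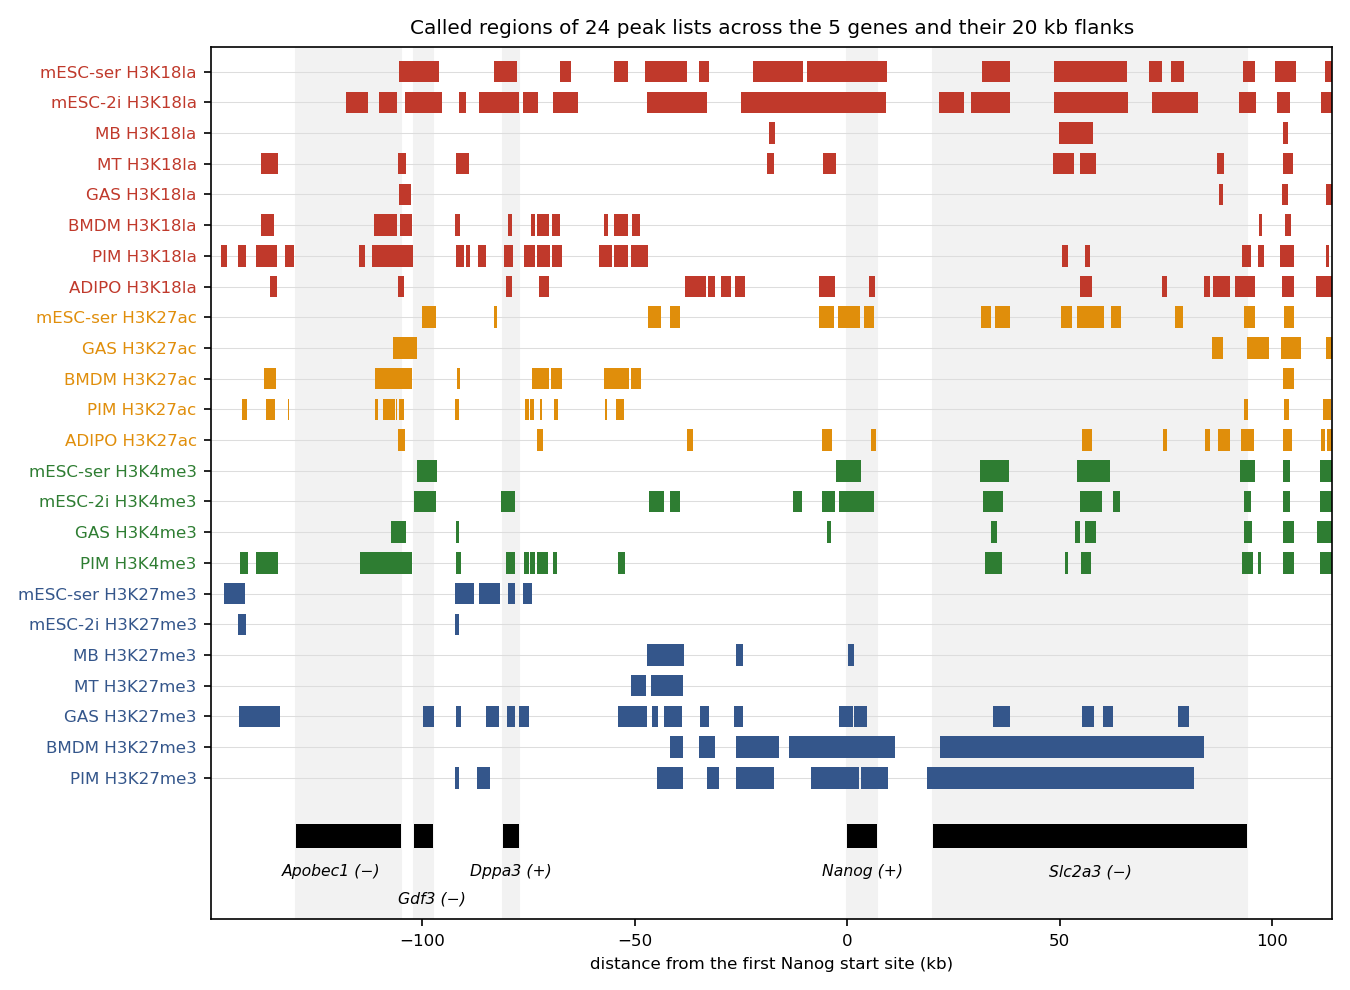
Peaks of the 24 lists across the neighbourhood, with distance from the Nanog start in kb on the x axis and 1 line per list, coloured by mark, above the positions of the 5 genes. Stem cell H3K18la reached from Apobec1 to Slc2a3, whereas BMDM and PIM had most of their H3K18la upstream of the Nanog window (the Nanog window itself held 0%) and broad H3K27me3 over Nanog and Slc2a3.

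In the windows, which take in the gene bodies and flanks, H3K18la was called at 10 of 10 in stem cells (41.1% of all genes and 56.1% of protein-coding genes) and at 23 of 30 in the other cell types (39% and 52%). The share of each window covered by H3K18la peaks allowed a comparison of the 2 stem cell lists with the 6 others by an exact two-sided permutation test over cell types. The covered share of the Nanog window was 60.8% in mESC-ser, 73.8% in mESC-2i, 3.08% in MB, 9.83% in MT, 0% in GAS, BMDM and PIM, and 10.7% in ADIPO. For Slc2a3 the shares were 42.8% and 54.4% in the stem cells, 8.21% in MB, 11.5% in MT, 3.43% in GAS, 1.99% in BMDM, 8.72% in PIM and 19.3% in ADIPO. Both genes had the stem cells above every other cell type, with no overlap. The windows are not independent, since 26.825 kb are common to Nanog and Slc2a3 (56.9% of the Nanog window and 23.6% of the Slc2a3 window), 37.042 kb to Apobec1 and Gdf3, and 23.678 kb to Gdf3 and Dppa3. Without the stretch that Nanog and Slc2a3 share, an alternative chosen after seeing the data, the stem cells still lay above every other cell type at both, at 95.9% and 100% against at most 22.8% for Nanog and at 45.4% and 54.6% against at most 23.7% for Slc2a3. The means were 67.3% against 3.93% ± 5.05 (SD, n = 6) for Nanog and 48.6% against 8.87% ± 6.23 for Slc2a3. The exact permutation p was 0.0357 for both, the smallest that 28 assignments allow.

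Gdf3, Dppa3 and Apobec1 overlapped between the groups. The Gdf3 window was covered to 33.5% in mESC-ser and 65.5% in mESC-2i, and among the others it ranged from 0% in MB to 40.4% in PIM. The Dppa3 window was covered to 30.3% and 60.7%, and among the others from 0% in MB and GAS to 36.1% in PIM. In both, PIM lay above the serum stem cells and below the 2i stem cells (permutation p = 0.0714, exact). In the Apobec1 window PIM was the highest of the 8 cell types at 40.7%, above mESC-2i (33.5%), BMDM (19.7%) and mESC-ser (14.5%), with an exact permutation p of 0.393. Without PIM, or without mESC-ser, 4 of the 5 members did not overlap between stem cells and the others. Without mESC-ser the 2i list alone stood for the stem cells. The share of all genes in these settings is not at hand, so these counts cannot be set against it.

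These shares are to be read against all genes. Both stem cell lists stood above all others at 16.3% of all genes and 21.8% of protein-coding genes, and 2 of the 5 members did so. After Benjamini-Hochberg adjustment over the 53843 genes the exact permutation p was 0.223 for Nanog and Slc2a3 and 0.364 for Gdf3 and Dppa3. No gene had an adjusted p below 0.05 (0%), against 8614 (16%) at an unadjusted p below 0.05. When every list was reduced to the same number of covered bases, the stem cells stayed higher by 61.4 percentage points at Nanog, 23.4 at Slc2a3 and 2.25 at Gdf3, and turned lower at Apobec1 (-0.280) and Dppa3 (-0.0483).

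**Figure D4:**
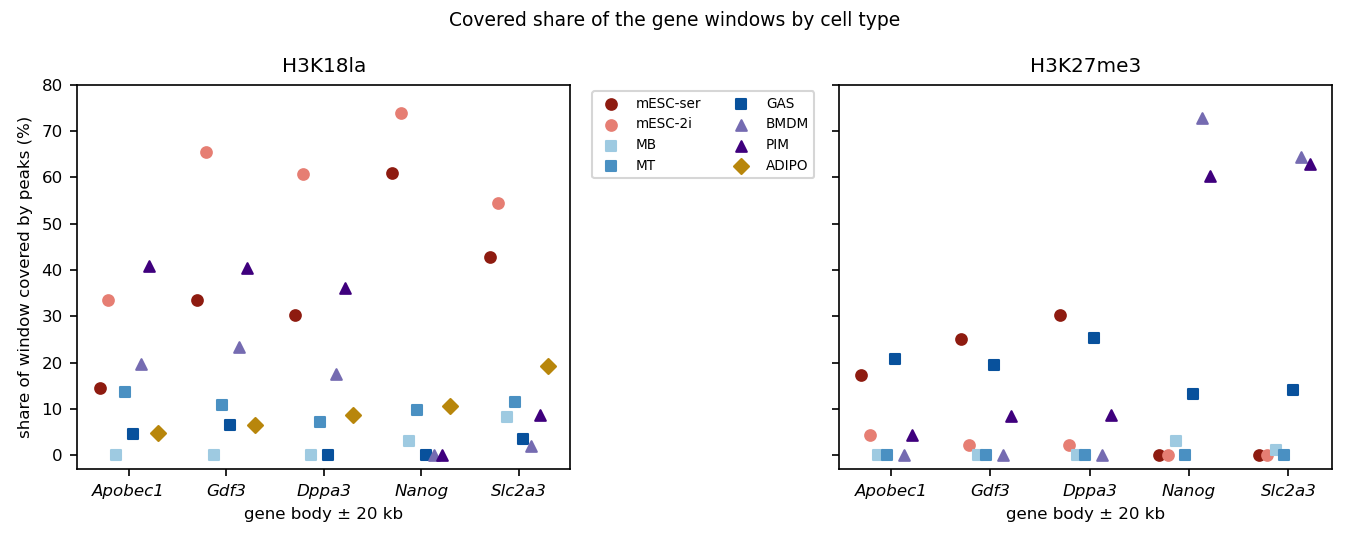
Percent of each gene's window (body and 20 kb on either side) covered by H3K18la and by H3K27me3 peaks, 1 point per cell type, with circles for stem cells, squares for muscle, triangles for macrophages and diamonds for adipocytes. The stem cells lay above all others in H3K18la for Nanog (60.8% and 73.8%) and Slc2a3 (42.8% and 54.4%), and BMDM and PIM were highest in H3K27me3 for the same genes.

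H3K27me3 was called at 6 of 10 windows in stem cells (35.4% of all genes and 45% of protein-coding genes) and at 14 of 25 in the other cell types (30.7% and 40.6%). By covered share, Nanog and Slc2a3 stood apart from the others. The Nanog window was covered to 0% in both stem cell lists and MT, 3.10% in MB, 13.3% in GAS, 72.8% in BMDM and 60.3% in PIM. The Slc2a3 window was covered to 0% in both stem cell lists and MT, 1.16% in MB, 14.0% in GAS, 64.3% in BMDM and 62.8% in PIM. Apobec1, Gdf3 and Dppa3 had 0% in BMDM and at most 8.71% in PIM, with their highest shares in mESC-ser (17.4%, 25.0% and 30.3%) and GAS (20.8%, 19.4% and 25.2%). The means of stem cells and others differed by less than the spread between cell types, at 0% against 29.9% ± 34.1 (SD, n = 5) for Nanog (permutation p = 0.238, exact, two-sided, the smallest possible being 0.0476). For Slc2a3 they were 0% against 28.4% ± 32.5 (exact permutation p = 0.19). Both stem cell lists stood below all others at 2.96% of all genes (4.06% of protein-coding genes) and at 0 of the 5 members, with MT at the same 0%. No gene had a Benjamini-Hochberg adjusted p below 0.05, against 3659 (6.8%) at an unadjusted p below 0.05. For Apobec1, Gdf3 and Dppa3 the difference changed sign without mESC-ser (-0.638, -3.47 and -4.62 percentage points), so that it rested on that list.

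The macrophages split the neighbourhood between Dppa3 and Nanog. On the Apobec1 to Dppa3 side (92.481 kb, up to the end of the Dppa3 window), H3K18la of BMDM or PIM covered 40.6% and their H3K27me3 4.13%. The Nanog to Slc2a3 side was the rest (171.368 kb), with the stretch before the Nanog window included. There the proportions were the other way round, with H3K18la of either at 11.1% (19.033 kb, against 37.535 kb on the first side) and H3K27me3 of either at 65.0%. Stem cell H3K18la showed no such split, covering 43.6% of the first stretch and 63.2% of the second. The 2 macrophage lists gave nearly the same H3K27me3 in the neighbourhood, with 91.041 kb shared, which is 87.5% of the BMDM bases and 89.1% of the PIM bases. On the Nanog to Slc2a3 side 78.4% of the stem cell H3K18la bases lay in macrophage H3K27me3, against 65.0% for any base.

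Macrophage H3K18la formed 22 regions in the neighbourhood, of which 12 were called in both BMDM and PIM. Of the 22, 16 met a stem cell H3K18la peak, 14 met macrophage H3K27ac, 16 met PIM H3K4me3 and 4 met macrophage H3K27me3, where any overlap counted. By bases, 55.4% of macrophage H3K18la lay in stem cell H3K18la, which covered 56.3% of the neighbourhood, so this overlap was near that of any base. In macrophage H3K27me3 lay 9.27%, where 43.7% of the neighbourhood was covered. H3K27ac covered 11.2% of it in BMDM and 7.42% in PIM, and PIM H3K4me3 17.4%. A region at chr6:122652646-122655969, between Dppa3 and Nanog, was among the strongest (rank 389 of 19571 in BMDM and 1251 of 32066 in PIM). Another lay in the 3' flank of Apobec1, at chr6:122569393-122572599 in BMDM (rank 357) and with rank 1078 in PIM.

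Stem cell H3K18la formed 17 regions, 11 of them called in both media. The media overlapped closely, with 95.232 kb shared, 92.0% of the serum bases and 67.9% of the 2i bases. Of the serum H3K18la bases 43.5% lay in serum H3K27ac, which covered 17.2% of the neighbourhood, and 3.06% in serum H3K27me3, which covered 6.95%. Of the 17 regions, 10 met serum H3K27ac, 9 stem cell H3K4me3 and 3 stem cell H3K27me3, while 11 met H3K27me3 in another cell type. Only 2 of the 17 met no H3K18la in any other cell type, both of them at Slc2a3 and including its proximal starts. A region from -47.5 to -32.5 kb relative to the Nanog start met H3K27me3 in all 5 of the other cell types mapped. A region about 100 kb downstream, beyond the upstream Slc2a3 start, was called in all 8 H3K18la lists.

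**Figure D5:**
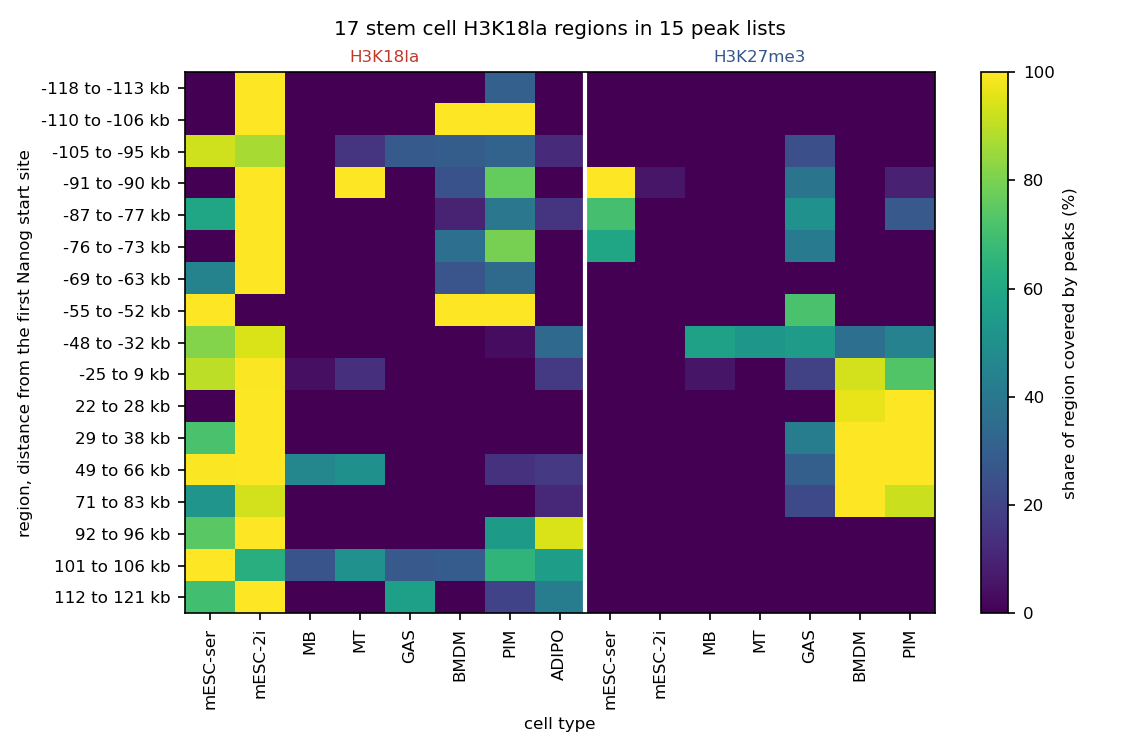
The 17 regions of stem cell H3K18la, named by their distance from the first Nanog start in kb, against the 8 H3K18la lists and the 7 H3K27me3 lists, with the colour giving the percent of the region covered by peaks. Of the 17, 11 met H3K27me3 in a cell type other than stem cells and 2 met no H3K18la outside the stem cells. Any overlap counted, and H3K27me3 of BMDM or PIM covered 43.7% of the neighbourhood.

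The members were set beside genes of the same pathway or family. Of 17 core pluripotency genes (Pou5f1, Sox2, Esrrb, Zfp42 and others, without Nanog) all 17 had promoter H3K18la in both stem cell lists, 9 in no other list, and 12 had H3K27me3 in at least 3 other cell types. The shares over all genes were 17.5%, 3.19% and 11.6% (28.6%, 3.5% and 18% of protein-coding genes). Sox2, Fgf4, Sall4 and Utf1, for example, had H3K27me3 in all 5 other cell types. Of the 4 Dppa genes other than Dppa3, 3 were called in both stem cell lists, and Dppa4 and Dppa5a in no other. Among 15 genes of Nodal and Gdf3 signalling, Gdf3 included, 11 were called in both stem cell lists. Gdf1, Gdf3 and the inhibitors Lefty1 and Lefty2 were called in no other list, and the other 7 were also called elsewhere: the ligand Nodal and its co-receptor Tdgf1 in GAS, the receptor genes Acvr1b and Acvr2b, the effectors Smad3 and Foxh1, and the convertase gene Pcsk6. The same shares are the background of these and the following counts. Of the 11 facilitative glucose transporters other than Slc2a3, 5 were called in both stem cell lists and 0 there alone, and of the 4 cytidine deaminases other than Apobec1, 2 and 0. These lists were chosen with results of these data known, and their counts are a description.

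The genes most like each member were the 3 with the smallest Euclidean distance to it over 24 values, 1 per list, each being 0 without a promoter peak and otherwise the percentile of the strongest promoter peak in its list. For Nanog they were L1td1 (distance 48.9), Trim71 (52.9) and Cdh1 (56.0), where the median gene was at 265. For Gdf3 they were Cldn4, Pirt and Dppa5a (14.0 to 54.5, median gene 239), and for Dppa3 Cryge, Pcdhga12 and 4933428G20Rik (85.3 to 96.6, median gene 214). For Apobec1 they were Birc3, Slc17a5 and Ly96 (88.2 to 99.8, median gene 273), and for Slc2a3 Ninl, Dmtn and Mycl (117 to 125, median gene 284). The 3 nearest genes of Nanog and of Gdf3 were closer than the nearest gene of Apobec1, Dppa3 or Slc2a3. Of the nearest genes, Pirt matched all 24 calls of Gdf3 and Ly96 all 24 of Apobec1.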

How the data were processed

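CUT&Tag libraries (41 samples in 24 groups of cell type and mark) were trimmed, aligned to mm10 and reduced to peak lists by the authors, whose processing notes name FastQC 0.11.0, Trim Galore 0.6.6, Bowtie2 2.4.4, SAMtools 1.13, bedtools 2.30 and SEACR 1.3. Per the study's methods, replicates were combined and SEACR kept the top 1% of regions in stringent mode. The deposited signal is fragment coverage per peak (total and maximum), not scaled for depth, so it was used only as a rank within its own list. The study's methods state that peaks in blacklisted regions were filtered out, and no source used here says whether the deposited lists are those before or after that filter. Duplicate removal is not given in the sources used here. The study tabulates reads per sample, which were not used here.

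Peaks were intersected with GENCODE M21 genes on GRCm38 (chromosomes 1 to 19 and X, 263 peaks on other sequences left out). A promoter was any annotated start with 2 kb on either side, a window the gene body with 20 kb on either side, and 1 shared base made a call. Covered window shares of stem cells and other cell types were compared by exact two-sided permutation over cell types for all 53843 genes, with Benjamini-Hochberg adjustment over them (28 assignments for H3K18la, 21 for H3K27me3). The unit of these tests is a cell type and not a replicate. With no replicate values, no interval is given, and no values were taken from samples singly. Calls and shares were checked on simulated peaks against bedtools 2.31.1, with 3000 of 3000 equal. Python 3.11.15, numpy 2.4.6, pandas 2.3.3, scipy 1.17.1 and matplotlib 3.10.9 were used. The genes named are the 5 members, the 3 protein-coding genes of other loci nearest to each, the protein-coding genes within 250 kb and the stated lists. The members and lists were chosen with earlier results of these data known. RefSeq promoter entries were found for 2 of the 5 members (3 entries of 32851).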

Additional observations from a re-analysis of the deposited data

How the results depend on the processing

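Alternatives were other widths of promoter (1 or 5 kb on either side) and window (10 kb on either side, or the body alone), starts of protein-coding transcripts alone, an overlap of at least 200 bp, ranking by maximum signal or by signal over width, covered share minus that of the genome, the 5000 peaks of largest signal per list, lists of a mark reduced to equal covered bases, leaving out each cell type, and, chosen after seeing the data, leaving out the segment between Gdf3 and Dppa3 or the stretch shared by the Nanog and Slc2a3 windows. Of the counts 73 values stayed within 1.5 times the reported one and 24 moved. Of the single genes' differences 111 kept their direction, with no adjusted p below 0.05, 7 reversed, and 1 went to 0 (H3K27me3 at Apobec1 with the body alone). Promoter calls of H3K18la in stem cells went from 10 to 5 with equal bases (Apobec1, Gdf3, Nanog and Slc2a3 in serum and Nanog in 2i) and stayed at 10 with 5000 peaks. In other cell types the promoter calls at 5 kb, with 5000 peaks and with equal bases were 16, 3 and 4 for H3K18la (10 reported) and 11, 3 and 4 for H3K27ac (7 reported). H3K4me3 gave 2 with 5000 peaks (5 reported), and H3K27me3 gave 4 with 5000 peaks and 5 with equal bases (9 reported). The window calls with the body alone, 5000 peaks and equal bases were 14, 14 and 10 for H3K18la in other cell types (23 reported, 39% of all genes), 1, 3 and 3 for H3K27me3 in stem cells (6 reported, 35.4% of all genes, and 3 with 10 kb), and 9, 5 and 7 for H3K27me3 in other cell types (14 reported, 30.7%). The number of members with both stem cell lists above all others in H3K18la was 4 with the body alone. It ranged from 2 to 4 on leaving out a cell type, with 4 without PIM and 4 without mESC-ser, where the 2i list alone stood for the stem cells. For H3K27me3 the number with both below all others ranged from 0 to 2, with 2 without MT. The shares of all genes in these settings are not at hand. Differences of H3K18la reversed with equal bases at Apobec1 (-0.280 percentage points) and Dppa3 (-0.0483). Those of H3K27me3 reversed at Apobec1 with 10 kb (-3.90), at Gdf3 with the body alone (-10.2), and without mESC-ser. On leaving out a cell type they ranged from -0.638 to 12.3 at Apobec1, -3.47 to 19.4 at Gdf3 and -4.62 to 23.5 at Dppa3. The causes were not tested. The number of peaks and of bases covered differs between lists, their read depth was not taken into account, and calls near the bottom of a list can be lost by a list that keeps fewer peaks. No paired analysis was possible because replicates were combined before peaks were called.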

Other observations

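The neighbours of the 5 genes within 250 kb divided in the same ways. Rimklb, the next gene beyond Apobec1, had promoter H3K18la in both stem cell lists and in no other, with H3K27me3 in all 5 other cell types mapped and in serum stem cells. Phc1, which encodes a Polycomb component, had H3K18la in both stem cell lists and in PIM. C3ar1, the receptor for complement fragment C3a, and the lectin gene Clec4a3 had promoter H3K18la in BMDM and PIM and in no other list.

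A short segment between Gdf3 and Dppa3 was called in 12 of the 24 lists and was chosen after its values were seen. It was called in 4 of 8 H3K18la lists, 2 of 5 H3K27ac lists, 2 of 4 H3K4me3 lists and 4 of 7 H3K27me3 lists. In BMDM its H3K18la maximum was 3197, 20.9 times the list's median and 23rd of 19571 peaks, and in PIM it was 1594 (37th of 32066) and in MT 663 (172nd of 33991). The BMDM peak, chr6:122615283-122616454, was 79.9% repeat-masked, and the 200 bases around its maximum held 33 copies of the unit TGACTC. The 50 bases at the maximum had 10 non-overlapping matches in the genome, against 1 for each of the 12 other maxima looked up among the members. Matches within the same repeat were included, so the 10 are not a count of separate places. Leaving the segment out, which was an alternative chosen after seeing the data, gave 22 window calls of H3K18la in other cell types in place of 23 and 4 of H3K27me3 in stem cells in place of 6. No promoter call rested on it.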
